A study of Mus musculus with 3 samples.

Results

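Dense chains of Foxf2-FLAG peaks in the embryonic mouse tongue are described here: stretches of the genome in which 4 or more peaks follow each other closely. They were chosen by the measured positions of the peaks. Peaks on the main chromosomes were sorted by midpoint, neighbours with midpoints at most 10000 bp apart were joined, and chains of 4 or more peaks were kept. The rule selected 1167 of 25704 peaks (4.54%, exact 95% interval 4.29 to 4.8), which made up 261 chains. The remaining 24537 peaks were 16281 single peaks, 3084 pairs and 696 chains of 3. Because the positions selected the members, neither the number of chains nor their spacing is a result, and the score and focus ratio of a peak, which come from the same contrast of ChIP against input, are given as descriptions. Peaks of 1 chain share their surroundings and peaks are not replicates, so no test was run, and the intervals cover the counting of peaks only.

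The data were anti-FLAG ChIP-seq of tongues from E12.5 embryos homozygous for a 3xFLAG tag on endogenous Foxf2 (Foxf2FLAG/FLAG), introduced with CRISPR/Cas9. There were 2 anti-FLAG ChIP libraries, and 1 input library that served as the control. All 3 libraries came from tagged embryos at the same stage, and the labels give 75 dissected tongues without saying whether these were pooled per library or over all of them. Whole tongues were used, so a peak can come from any tongue cell type that makes Foxf2. A single combined peak list was analysed, without values per library, so neither the spread between ChIP libraries nor the read depth behind a peak is known.

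Foxf2 is a forkhead transcription factor of the mesenchyme, the loose connective tissue precursor that gives rise to tongue tendons, fascia and stroma and that signals to the tongue muscle and epithelium. Forkhead factors bind DNA through a winged helix domain that reads a short AT-rich core. Genes that control development often have several distal regulatory regions, spread over introns and over the sequence between genes, and a factor may be recovered at many of them.

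The sequence under the peaks is shown first for the chain with the nearest transcription start site (TSS) belonging to Ptch1, the receptor that binds Hedgehog ligands and restrains the pathway in their absence. It was among the 12 chains with 7 peaks. It spans the 3′ part of the gene on chromosome 13, with 5 peaks in introns, 1 at the transcript end and 1 beyond it, and its middle is 48.6 kb downstream of the TSS. The lines below give the central 101 bases of each peak on the plus strand of mm10, read from GRCm38. Capitals mark the forkhead core, taken as ATAAACA or ATAAATA, or with G as the first base as GTAAACA or GTAAATA, on either strand. A match on the minus strand appears in these lines as its reverse complement, so that GTAAACA appears as TGTTTAC.
Ptch1 chain, peak 1, chr13:63506078-63506178: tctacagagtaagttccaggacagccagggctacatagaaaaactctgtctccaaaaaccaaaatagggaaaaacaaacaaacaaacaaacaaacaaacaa
Ptch1 chain, peak 2, chr13:63508068-63508168: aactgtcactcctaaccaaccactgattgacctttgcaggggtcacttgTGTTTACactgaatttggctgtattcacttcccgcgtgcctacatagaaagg
Ptch1 chain, peak 3, chr13:63515665-63515765: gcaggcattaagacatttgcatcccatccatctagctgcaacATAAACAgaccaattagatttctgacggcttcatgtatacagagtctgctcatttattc
Ptch1 chain, peak 4, chr13:63516822-63516922: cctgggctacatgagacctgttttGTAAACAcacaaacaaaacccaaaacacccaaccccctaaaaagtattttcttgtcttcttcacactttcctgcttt
Ptch1 chain, peak 5, chr13:63522878-63522978: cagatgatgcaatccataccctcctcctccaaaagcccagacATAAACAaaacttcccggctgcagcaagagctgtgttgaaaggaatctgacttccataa
Ptch1 chain, peak 6, chr13:63524552-63524652: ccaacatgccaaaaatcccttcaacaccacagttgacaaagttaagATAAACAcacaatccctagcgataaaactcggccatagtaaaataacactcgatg
Ptch1 chain, peak 7, chr13:63525773-63525873: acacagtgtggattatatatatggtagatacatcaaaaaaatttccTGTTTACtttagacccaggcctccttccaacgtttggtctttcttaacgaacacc

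Of these 7 windows, 6 held the core and 1 did not. Peaks 1 and 4 were 73.5% and 64.5% repeat-masked in their central 200 bp, compared with a mean of 12.6% for all chain peaks. The matches were 3 of the form ATAAACA and 3 of the form GTAAACA, the strict core. In 5 of them the centre of the match lay close to the peak centre, at 2, -5, -5, -1 and -1 bp for peaks 2, 3, 5, 6 and 7. Over all 25704 peaks the core stood in the central 100 bp, close to the width shown, of 68.2%. In the wider central 200 bp it stood in 72.5%, and GTAAACA in 27.4%.

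The scores of the 7 Ptch1 peaks, in order along the chromosome, were 11.3, 12.3, 63.3, 19.8, 38.7, 56.6 and 43.9. The score is the authors' peak caller's value, of unstated scale, and its median over all peaks was 16.2. The low-scored peaks were at the side beyond the transcript end and peak 3 had the highest score. The last 3 peaks lay 1674 and 1221 bp apart, and the longest gap in the chain was 7597 bp, between peaks 2 and 3.

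Beyond the 5′ end of Ptch1 stood a pair of further chains that were among the 3 with the largest summed score of all 261. They were nearest to the TSS of Ercc6l2, a helicase-like gene linked to DNA repair, and of Hsd17b3, an enzyme of testosterone synthesis. Their distances to the Ptch1 TSS, -353.2 and -426.1 kb (negative is upstream), were computed after the chains had been seen. The chain nearest to Hsd17b3 had the largest summed score, 397.0 over 6 peaks, and is shown for that reason in the same way. Its label below gives its position only and does not assign it to Ptch1, since the Ercc6l2 gene lies between them.
Chain upstream of Ptch1, peak 1, chr13:63980382-63980482: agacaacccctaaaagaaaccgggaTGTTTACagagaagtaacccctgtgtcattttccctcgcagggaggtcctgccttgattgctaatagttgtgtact
Chain upstream of Ptch1, peak 2, chr13:63985522-63985622: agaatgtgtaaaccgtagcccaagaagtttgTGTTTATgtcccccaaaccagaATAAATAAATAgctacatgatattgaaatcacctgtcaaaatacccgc
Chain upstream of Ptch1, peak 3, chr13:63988466-63988566: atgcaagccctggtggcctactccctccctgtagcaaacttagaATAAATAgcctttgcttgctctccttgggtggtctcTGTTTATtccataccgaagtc
Chain upstream of Ptch1, peak 4, chr13:63990789-63990889: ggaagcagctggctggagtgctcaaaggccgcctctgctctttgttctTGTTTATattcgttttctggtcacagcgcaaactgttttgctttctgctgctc
Chain upstream of Ptch1, peak 5, chr13:63994123-63994223: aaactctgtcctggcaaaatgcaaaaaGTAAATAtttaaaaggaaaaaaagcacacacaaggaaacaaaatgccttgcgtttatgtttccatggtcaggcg
Chain upstream of Ptch1, peak 6, chr13:64003187-64003287: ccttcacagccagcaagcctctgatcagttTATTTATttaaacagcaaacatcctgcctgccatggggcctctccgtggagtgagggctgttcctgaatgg

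All 6 windows held the core, with 9 matches in all. Only 1 was the strict GTAAACA. There were 4 matches of ATAAATA, 3 of ATAAACA and 1 of GTAAATA, and in peak 2 the pair of ATAAATA matches overlapped. The window of peak 3 also held, in lower case, GGGTGGTC, the core of the sites bound by the GLI factors that act at the end of the Hedgehog pathway.

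The 6 scores were 85.2, 86.6, 38.9, 43.7, 67.3 and 75.3. Every peak scored above the upper quartile of all peaks (24.5), and the chain had the highest minimum of the 261. Its neighbour near Ercc6l2 scored 53.9, 174.5, 53.4 and 13.1, so that its second peak alone gave 59.2% of the summed 294.9. That peak ranked 14 in the whole list and held 3 forkhead matches. The chains were 52.9 kb apart, and all peaks of both were intergenic.

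GGGTGGTC occurred in the central 200 bp of 5 chain peaks (0.428%, interval 0.139 to 0.997) and of 0.571% of the other peaks (0.48 to 0.673). The 5 were named after their counts were seen. They were peaks 3 and 6 of the chain near Hsd17b3, peak 4 of the chain near Ercc6l2, a peak in an intron of Ror2 and a peak in the chain nearest to Lmo4. The share in chain peaks equalled that in windows of the same width 2000 bp to either side (0.428%). With only 5 chain peaks this cannot show whether the word is more frequent under chain peaks than beside them. The flanks of the other peaks held it in 0.381%.

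**Figure D1:**
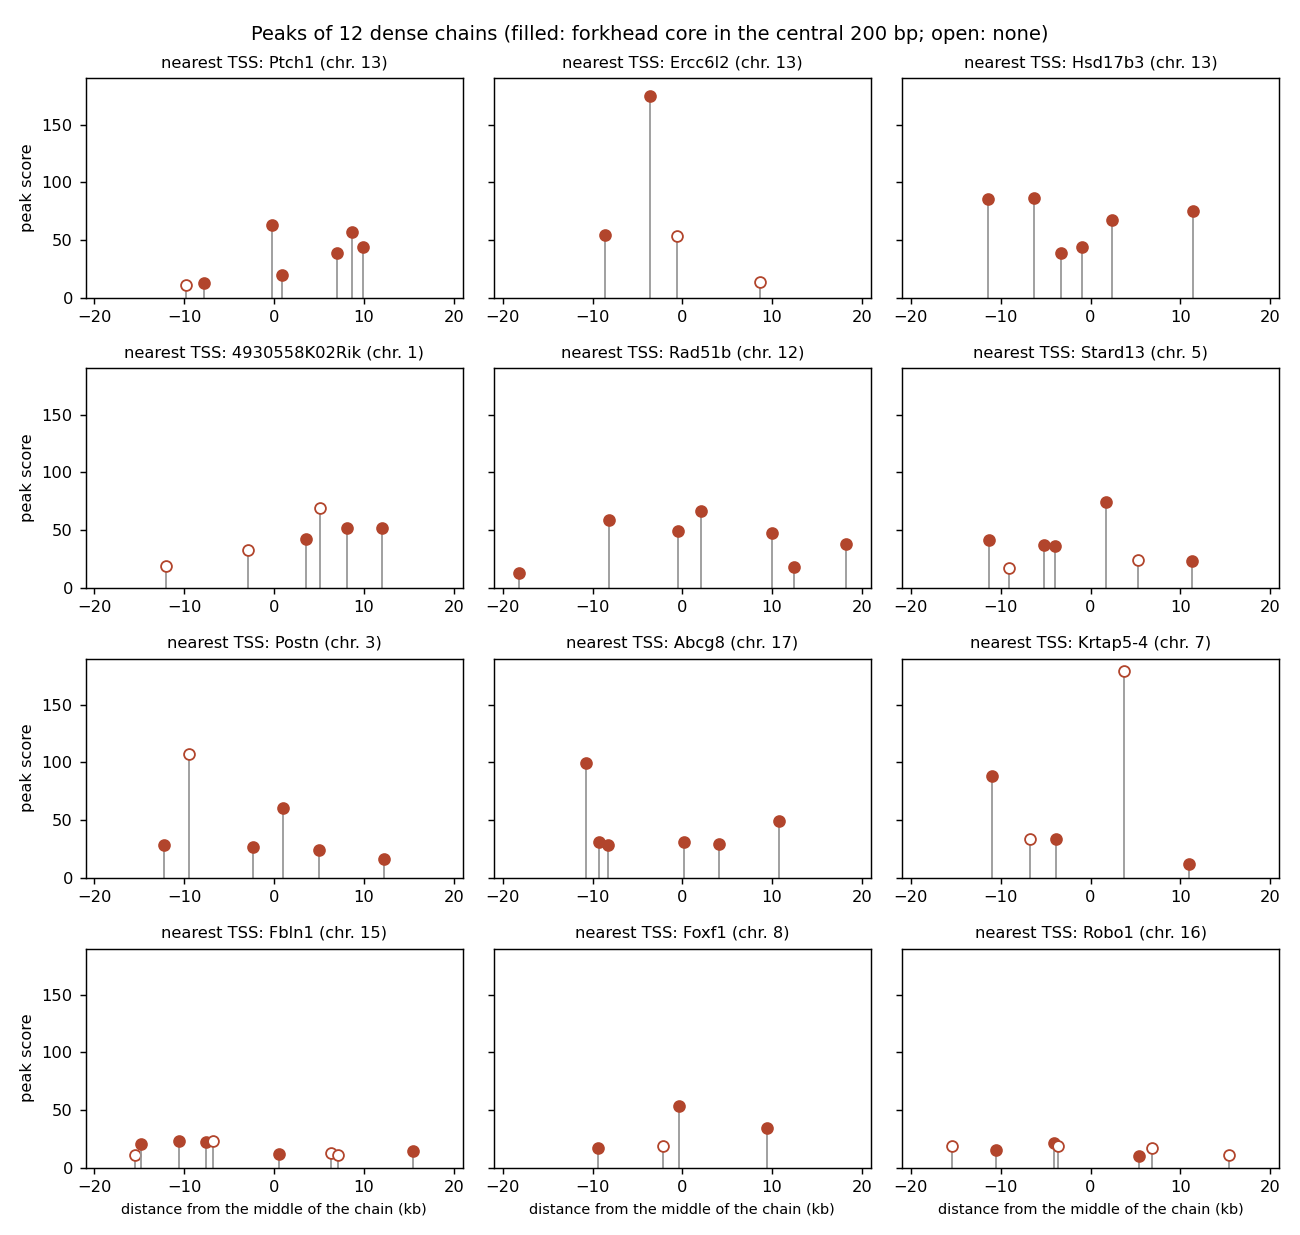
Scores of the peaks of 12 dense chains (vertical axis, the authors' score) against distance from the middle of the chain (horizontal axis, kb), with each panel titled by the nearest protein-coding TSS. Filled points held a forkhead core in the central 200 bp and open points did not. The chain near Hsd17b3 has 6 filled points between 38.9 and 86.6, while the 9 peaks near Fbln1 all lie at or below 23.4.

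The chain near Foxf1, the closest relative of Foxf2, is shown as the last example because it concerns the factor's own family. Its 4 peaks lay upstream of Foxf1 on chromosome 8, at -19.9, -12.7, -10.9 and -1.14 kb from the TSS.
Foxf1 chain, peak 1, chr8:121064418-121064518: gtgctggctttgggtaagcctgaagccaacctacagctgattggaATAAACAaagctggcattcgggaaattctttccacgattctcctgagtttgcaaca
Foxf1 chain, peak 2, chr8:121071637-121071737: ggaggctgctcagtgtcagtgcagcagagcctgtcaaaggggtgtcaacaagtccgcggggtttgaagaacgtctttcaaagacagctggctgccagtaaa
Foxf1 chain, peak 3, chr8:121073436-121073536: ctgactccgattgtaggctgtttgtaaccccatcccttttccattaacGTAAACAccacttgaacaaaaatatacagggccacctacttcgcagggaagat
Foxf1 chain, peak 4, chr8:121083198-121083298: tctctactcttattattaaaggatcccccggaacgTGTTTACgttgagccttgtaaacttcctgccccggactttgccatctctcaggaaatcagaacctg

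The windows of peaks 1, 3 and 4 held the core, as the strict form in peaks 3 and 4, and peak 2 held none. The scores were 17.0, 19.1, 53.1 and 34.0, so the strict matches stood under the pair of higher scores. The annotation places these peaks in an intron of Gm20388, a transcript model running from position 119910841 to 124345722 over many genes, and 2 of the 261 chains lay in that model. The middle of the Foxf1 chain was at -42.3 kb from the TSS of Foxc2 and at -54.1 kb from that of Foxl1, the next forkhead genes of the cluster.

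Chains spanned a median of 15843 bp from first to last midpoint, with quartiles of 12480 and 20273 bp. There were 179 chains of 4 peaks, 56 of 5, 13 of 6, 12 of 7 and 1 of 9. The 906 gaps between neighbours had a median of 4858 bp and ranged between 456 and 9980 bp, and 99 of them (10.9%) were under 1000 bp. The shortest chain, chosen after its span was seen, had 4 peaks in 3271 bp in intergenic sequence, at -137.9 kb from the TSS of Mpdz. The longest, in Rad51b, had 7 peaks over 36377 bp. At the edge of the rule, 18 of the 179 chains of 4 had a longest gap over 9500 bp, and 25 of the 696 chains of 3 had a further peak within 10500 bp of them. Median scores on the 2 sides of that edge were 18.2 for peaks in chains of 4 and 17.3 for peaks in chains of 3.

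**Figure D2:**
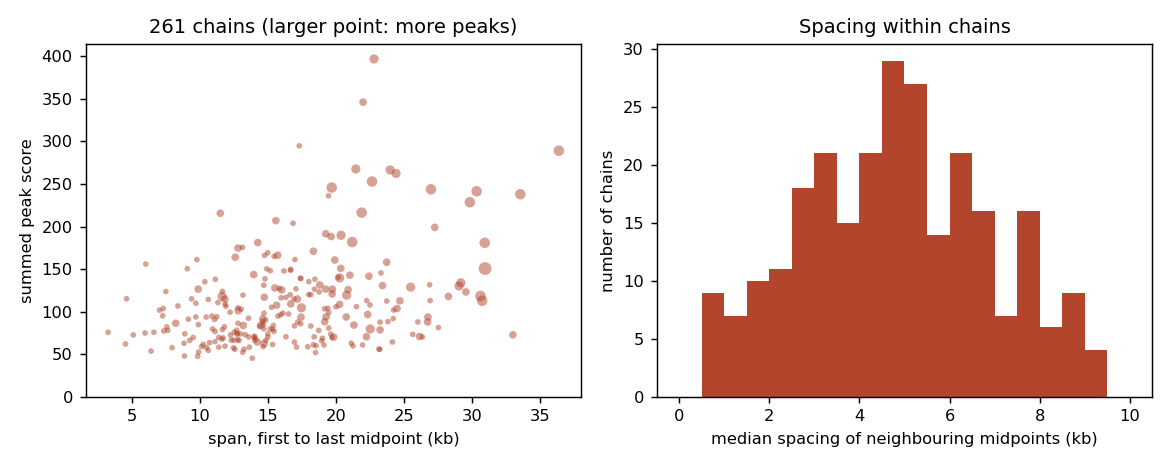
Left, summed score (vertical axis) against span from first to last midpoint in kb (horizontal axis) for the 261 chains, with larger points for chains of more peaks. Right, number of chains by their median spacing of neighbouring midpoints in kb, around an overall median gap of 4858 bp.

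Chain peaks scored a median of 18.5 (interval 17.7 to 19.0, quartiles 13.5 and 28.85), and the other peaks a median of 16.1 (15.9 to 16.2, quartiles 12.3 and 24.3). The ranges overlapped almost wholly, at 10.1 to 179.2 for chain peaks and 10.1 to 243.9 for the others. By the number of peaks in the chain, the median score was 15.6 for single peaks, then 17.1, 17.3, 18.2 and 18 for chains of 2 to 5, and 20.6 for chains of 6 or more. The focus ratio, read as the share of a peak's reads close to its centre, had a median of 0.771 in chain peaks and 0.783 in the others. Of the 100 highest-scored peaks 9 were in chains, and of the 1000 highest 70 (7.0%), where 4.54% of all peaks were.

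**Figure D3:**
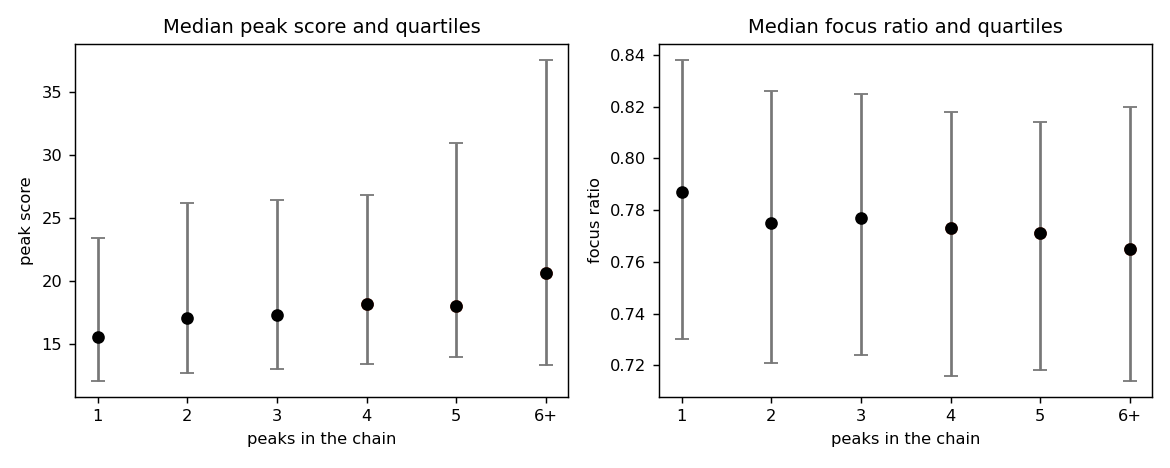
Median peak score (left) and median focus ratio (right), with bars for the quartiles, against the number of peaks in the chain. The median score is 15.6 for single peaks and 20.6 in chains of 6 or more, and the quartile ranges of all sizes overlap.

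Within a chain the score was spread unevenly. The highest peak gave a median of 36.1% of the summed score and was a median of 1.43 times the second highest. In 60 chains it was at least 2 times the second. In 40 chains every peak was at or above the list median of 16.2, and in 7 every peak was below it. The share of the highest peak ran from 15.5%, in the chain of 9 near Fbln1, to 78.5%, in a chain of 4 nearest to Samd5 that was named after its value was seen.

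Chain peaks lay mainly in introns. Introns held 627 of the 1167 chain peaks (53.7%, interval 50.8 to 56.6) and 45.0% of the other peaks (44.4 to 45.6), where 45.4% of all peaks were intronic. By number of peaks, the intronic share was 44.1% for single peaks, 46.6%, 47.1%, 49.9% and 61.1% in chains of 2 to 5, and 57.9% in chains of 6 or more. Promoters, from 1000 bp before a TSS to 100 bp after it, held 48 chain peaks (4.11%, 3.05 to 5.42) and 8.73% of the others (8.38 to 9.09), with 8.52% over all peaks. The promoter share was 9.6% for single peaks, 7.49%, 5.65%, 4.19% and 4.64% in chains of 2 to 5, and 2.92% in the largest. Intergenic sequence held 36.7% of chain peaks (33.9 to 39.5) and 40.9% of the other peaks (40.2 to 41.5). The median distance to the nearest protein-coding TSS was 55.7 kb for chain peaks and 51.1 kb for the rest. Within 10 kb of such a TSS lay 15.3% of chain peaks and 21.1% of the rest.

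Of the chains as units, 118 of 261 (45.2%) lay wholly inside 1 or more protein-coding gene bodies, and for 29 of these the host was not the nearest gene. All peaks were intronic in 96 chains and all were intergenic in 77. A promoter peak occurred in 39 chains (14.9%), and in 8 of them there were 2 or more. The middle of a chain was a median of 56.7 kb from the nearest protein-coding TSS, and over 100 kb away in 89 chains (34.1%).

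The forkhead core was found in 822 of the 1167 chain peaks (70.4%, interval 67.7 to 73.0) and in 72.6% of the other peaks (72.1 to 73.2), where the share over all peaks was 72.5%. Flanking windows as wide, centred 2000 bp away, contained it in 18.6% around chain peaks and 18.4% around the others. The strict GTAAACA was found in 331 chain peaks (28.4%, 25.8 to 31.0) and 27.4% of the other peaks (26.8 to 28.0), with 27.4% over all peaks, and in 2.74% of flanks of chain peaks and 3.07% of flanks of the others. Both intervals of chain peaks touch those of the other peaks, so neither difference was resolved by counting, at -2.2 percentage points for the core (Newcombe 95% interval -4.94 to 0.404). The point value of that difference changed sign with the way chains were drawn, but the alternatives did not resolve a difference either. With links of up to 5000 bp the core stood in 80.6% of 124 chain peaks (72.6 to 87.2) and 72.5% of other peaks (72.0 to 73.0). That is a difference of 8.14 points, with intervals that overlap. Among peaks scored at or above the list median the difference was 0.43 points, for which no interval was computed. The strict GTAAACA did not rise with the 5000 bp links. It stood in 31 of those 124 chain peaks, a lower share than the 27.5% of other peaks. With links of up to 10000 bp, there were 2 or more core matches in 18% of chain peaks and 21.4% of the rest.

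Within each quartile of the score, the share with the core was lower in chain peaks, and the intervals overlapped in all 4. Among chain peaks it was in 61.2%, 63.2%, 73.5% and 78.2% from the lowest quartile to the highest. Among other peaks it was in 64.4%, 69.3%, 75.4% and 81.9%. Of the chain peaks, 17.2% fell in the lowest quartile and 32.2% in the highest. By class, it was in 72.1% of intronic chain peaks (68.4 to 75.6) and 74.8% of other intronic peaks (74.0 to 75.6), in 68.0% of intergenic chain peaks (63.3 to 72.4) and 73.4% of other intergenic peaks (72.6 to 74.3), and in 60.4% of promoter chain peaks and 60.2% of other promoter peaks. Among these classes the intervals were apart only for intergenic peaks.

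Counted per chain, and beside a share of 70.4% per chain peak and 72.5% over all peaks, the core was spread as follows. In 62 chains (23.8%) every peak held it, and in 228 at least 50% of the peaks did. Among the 179 chains of 4, 45 held it in all 4 peaks, 71 in 3, 44 in 2 and 18 in 1. The 1 chain without any core, named after its count was seen, had 4 peaks of summed score 52.4 and was nearest to Mterf1b. The strict core was absent from all peaks of 57 chains. The 1075 matches in chain peaks were ATAAACA in 41.3%, GTAAACA in 32.8%, ATAAATA in 16.1% and GTAAATA in 9.77%. Matches lay within 20 bp of the peak centre in 57.7% of cases in chain peaks and 57% in other peaks.

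**Figure D4:**
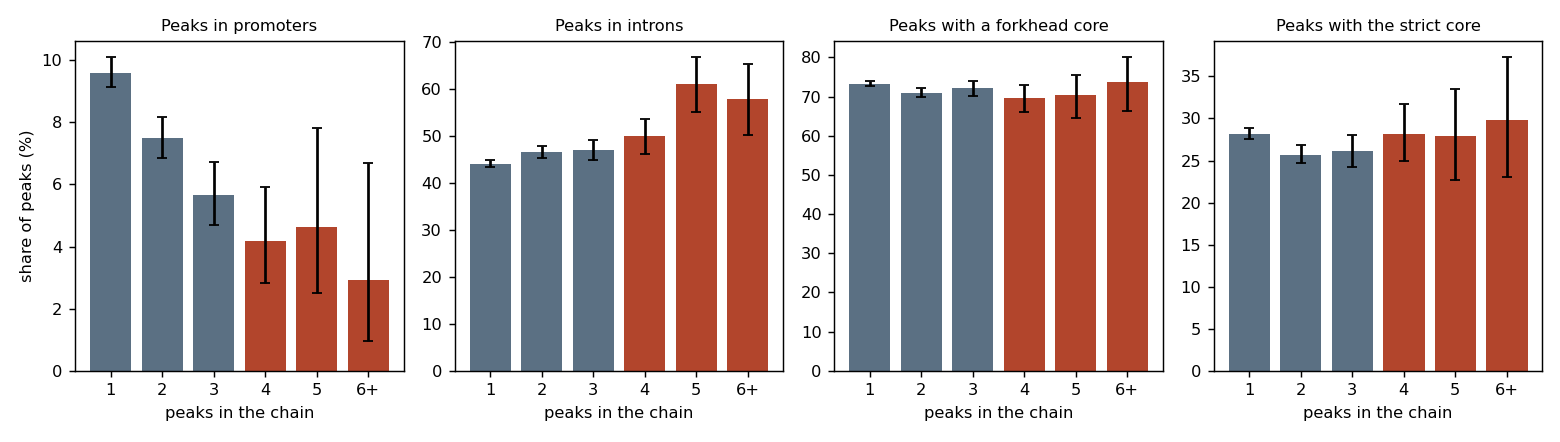
Share of peaks (%) in promoters, in introns, with a forkhead core and with the strict core, by the number of peaks in the chain (horizontal axis), with bars for exact 95% intervals. Red columns are dense chains and grey-blue columns are single peaks, pairs and chains of 3. The promoter share is 9.6% for single peaks and 2.92% in chains of 6 or more, while the share with a forkhead core stays between 69.7% and 73.7% over all sizes.

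Of 14 motifs other than the forkhead core, 2 had intervals in chain peaks that did not overlap those of the others. The core of CTCF, the factor that sits at chromatin loop anchors, was found in 7 chain peaks (0.6%, 0.241 to 1.23) and 1.47% of the others (1.32 to 1.63), with 1.43% over all peaks. The AP-1 site TGANTCA was found in 7.46% of chain peaks (6.01 to 9.11) and 5.7% of the others (5.41 to 6.0), with 5.44% in flanks of chain peaks and 5.93% in flanks of the others. Of the 7 CTCF matches, 1 lay under the highest-scored chain peak, 179.2 in the chain near Krtap5-4, which held no forkhead core. The others lay in chains near Prss12, Cryz, Dact1, Robo1, Abcg8 and Smarca2, and these 7 were named after their matches were seen.

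The remaining motifs were similar in share. The SMAD word GTCTG stood in 47.5% of chain peaks (44.6 to 50.4) and 44.0% of other peaks (43.4 to 44.7), with 37.3% in flanks of chain peaks and 36.1% in flanks of the others. The E-box CATCTG, read by bHLH factors such as TWIST, stood in 28.4% of chain peaks and 28.0% of the others, with 15.3% in flanks of chain peaks and 14.9% in flanks of the others. For CAGCTG, the E-box of myogenic factors, the share was 17.0% in chain peaks and 18.8% in the others. The TALE homeodomain word TGACAG stood in 18.1% of chain peaks and 18% of the others, and the TEAD word GGAATG in 15.7% of chain peaks and 15.0% of the others. The SOX word ACAATG stood in 14.1% of chain peaks and 13.1% of the others, and the RUNX word TGTGGT in 14.4% of chain peaks and 13.7% of the others.

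The 261 chains had 235 different nearest protein-coding genes, 1.08% of 21827. Genes with wide surroundings were nearest to a chain more often. The territory of a gene was the stretch of sequence closer to its TSS than to that of any other protein-coding gene. In the decile of genes with the widest territories (median 504 kb) 4.86% were nearest to a chain, and in the next decile 3.25%, while none of the decile with the narrowest was. Gene lists, each chosen with earlier results of these peaks known, are therefore given with their territories, and over them nothing was tested.

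Transcription factors of craniofacial mesenchyme had 15 of 64 genes nearest to a chain (23.4%, interval 13.8 to 35.7). At least 1 peak was held by 60 of them (93.8%), and by 37.4% of all protein-coding genes. The median territory of the list was 317 kb. The 15 were Bnc2, Ebf1, Ebf2, Eya2, Foxp1, Foxp2, Gsc, Hand1, Meis1, Nfia, Nfib, Nr2f2, Osr1, Osr2 and Twist2. Their 18 chains held 74 peaks, 54 of them with the forkhead core, and 10 chains lay inside the gene itself. The count of 15, among 235 nearest genes in all, depends on how chains are drawn, as does that total. It was 3 of 30 with links of up to 5000 bp, 2 of 79 for chains of 5 or more peaks, and 3 of 53 for peaks scored at or above the list median. With links of up to 20000 bp it was 30 of 700, and with chains of 3 or more 30 of 802. Bnc2, a zinc finger factor of mesenchyme, held 3 chains in its own introns, with summed scores of 103.0, 74.8 and 119.5, at 365.5, 318.9 and 171.0 kb from its TSS. The first pair were 33.7 kb apart.

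Individual chains in this list differed in place and strength. The chain near Twist2, a bHLH factor of dermal and facial mesenchyme, lay at -32.2 kb, scored 60.5, 12.7, 23.8 and 23.1 and held the core in all 4 peaks. The chain near Gsc, a homeobox gene of the jaw and first arch, scored 11.4, 41.5, 83.5 and 32.9 and lay at -112.7 kb. The chain near Nr2f2, a nuclear receptor of mesenchyme, scored 46.5, 41.5, 52.5, 23.5 and 17.2 with the core in 2 of 5 peaks, at -451.3 kb. The chain in Nfib, a CTF/NFI family factor, scored 15.3, 16.1, 28.2, 12.9 and 15.4. The core stood in 3 of 4 peaks near Gsc and in 4 of 5 in Nfib. The middle of 8 of the 18 chains was over 100 kb from the TSS.

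Signalling pathway lists had narrower territories than the mesenchyme factors, with medians of 151 kb for Hedgehog, 103 kb for TGF-beta and 150 kb for WNT, and their intervals overlapped that of the mesenchyme factors. In the Hedgehog list 2 of 18 genes (11.1%, 1.38 to 34.7) were nearest to a chain, Ptch1 and Boc, a co-receptor that binds Hedgehog ligands. The Boc chain of 5 peaks lay at -82.6 kb from its TSS and scored 23.7, 19.0, 10.2, 21.3 and 14.0 with the core in every peak. In the TGF-beta list 2 of 19 genes (interval 1.3% to 33.1%) were nearest to one. The chain in Smad7, an inhibitory SMAD, scored 48.2, 27.2, 25.7 and 47.6, with the core in 3 of 4 peaks and all peaks in introns. The chain at Ltbp1, which holds latent TGF-beta in the matrix, scored 11.2 at the promoter and 13.1, 50.8 and 30.1 inside the gene. The core stood in 2 of these 4 peaks.

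In the WNT list 4 of 46 genes (8.7%, 2.42 to 20.8) were nearest to 5 chains, with 21 peaks in all. The chain at -7.8 kb from Ryk, a WNT receptor with an atypical kinase domain, was compact at 6041 bp and scored 58.3, 58.7, 26.2 and 12.7 with the core in all 4. Ror2, the tyrosine kinase receptor of WNT5A, held a pair of chains 22.1 kb apart in its introns, with summed scores of 96.4 and 87.8. The chain nearest to Wnt5a itself lay at -166.9 kb in introns of Erc2, a gene of the nerve terminal, and scored 13, 16.5, 32.2 and 32.4. That in Znrf3, a ubiquitin ligase that removes WNT receptors, had a peak of 44.1 among 4 others at or below 17.8. The core stood in 2 of 4 peaks near Wnt5a, in 4 of 5 in Znrf3, and in 2 and 4 of 4 in the Ror2 chains.

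BMP genes had 1 of 26 (Bmp2, a ligand, with scores of 22.4, 14.0, 14.4 and 19.6) and FGF genes 1 of 23 (Etv1, an ETS factor induced by FGF). Median territories were 176 kb for the BMP list and 194 kb for the FGF list. Etv1 differed from most in having 2 of its 4 peaks in promoters. No gene of the HGF and MET list (0 of 11, upper limit 28.5%) or of the Notch list (0 of 22, upper limit 15.4%) was nearest to a chain. Over all protein-coding genes that share was 1.08%. At least 1 peak was held by 5 HGF and MET genes (45.5%) and 13 Notch genes (59.1%), and by 37.4% of all protein-coding genes. Their median territories were 79.2 kb for HGF and MET and 59.4 kb for Notch.

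Structural genes of connective tissue had 3 of 32 (9.38%, 1.98 to 25), with a median territory of 200 kb. The chain near Postn, which encodes the matricellular protein periostin, had 6 intergenic peaks 55.0 kb downstream of the TSS, beyond the gene's end, scoring 28.0, 107.0, 26.9, 60.0, 24.3 and 16.2. The peak of 107.0 ranked 118 in the list and was the only one of the 6 without the core. The chain near Col1a2, a chain of type I collagen, lay at -55.7 kb and scored 66.1 at its first peak and 22.0 or less at the other 3. The core stood in 2 of these 4 peaks. The chain in Fbn2, a microfibril gene, scored 68.9, 38.7, 29.6 and 10.7, with the core in every peak.

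Adhesion and guidance genes had 5 of 42 (11.9%, 3.98 to 25.6). All 42 had at least 1 peak, in territories of median 798 kb, where 37.4% of all protein-coding genes had one. At Robo1, a receptor for SLIT proteins, 7 peaks scored 18.8, 15.4, 21.8, 18.6, 10.2, 16.9 and 11.1, with the core in 3. They stood between -29.1 and 1.67 kb from the TSS. A second chain of 4 peaks stood 19.0 kb from it. Nrp1, a semaphorin and VEGF receptor, held 5 intronic peaks of 43.5, 18.1, 18.2, 13.8 and 23.4, all with the core. The Sema3a chain, at a ligand of Nrp1, held the core in only 1 of 4 peaks.

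In the forkhead family 4 of 29 genes (13.8%, 3.89 to 31.7) were nearest to a chain, Foxf1, Foxp1, Foxp2 and Foxp4. The median territory of this list was 185 kb. At Foxp2 the peaks scored 10.4, 33.4, 27.4 and 23.6 and lay at -8.71, 0.22, 0.12 and 1.32 kb from a TSS, with the core in the last 3. At Foxp1 they scored 16.1, 16.4, 14.5 and 27.0, and at Foxp4, at -46.2 kb from the TSS, 23.7, 11.2, 60.7 and 54.9. The pair of higher scores near Foxp4 stood under peaks without the core, and at Foxp1 the core stood in 2 of 4 peaks. Summed scores of the 4 chains ran between 74.0 and 150.5.

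The pericyte and smooth muscle list (median territory 68.4 kb) had 2 of 14 (14.3%, 1.78 to 42.8), both of them receptors: Ednra, with scores of 26.8, 71.2, 17.0 and 60.6 at -111.5 kb, and Pdgfrb, with 16.9, 13.4, 16.7 and 11.3 from its promoter inwards. The core stood in 3 of 4 peaks near Ednra and in 1 of 4 at Pdgfrb. The cartilage and bone list (median territory 108 kb) had 2 of 19, Sox9 with scores up to 20.1 and Runx1 with scores up to 19.4. None of 22 myogenic, 20 epithelial, 16 endothelial, 12 neural crest and glia, 15 neuronal, 12 blood and 26 ribosomal protein genes was nearest to a chain. Upper limits for these shares were 15.4%, 16.8%, 20.6%, 26.5%, 21.8%, 26.5% and 13.2%. Median territories, in the same order, were 70.0, 81.3, 115, 111, 163, 25.5 and 15.1 kb, compared with 47.4 kb over all genes.

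**Figure D5:**
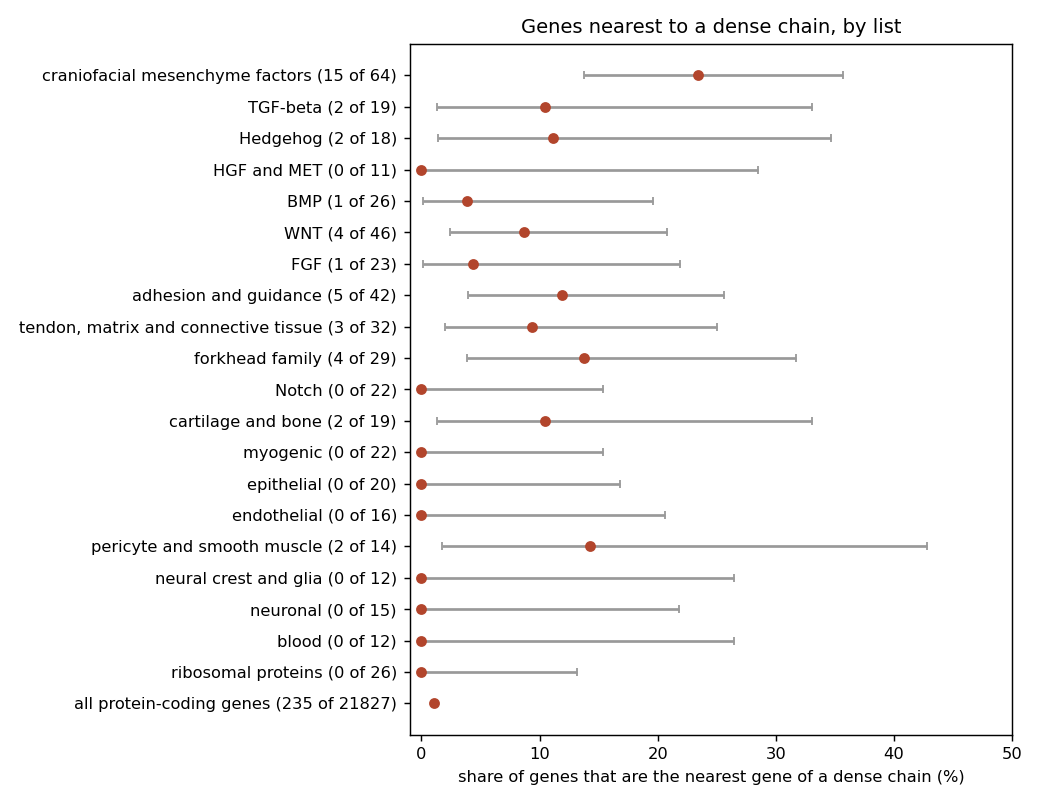
Share of the genes of each list that were the nearest gene of a dense chain (horizontal axis, %), with bars for exact 95% intervals and the counts in the labels. Craniofacial mesenchyme factors stand at 23.4% and all protein-coding genes at 1.08%, and most of the other intervals overlap each other.

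Several of the strongest and longest chains lay by genes outside all of these lists. Rad51b, a recombination repair gene with very long introns, held 3 chains. The middle one had 7 peaks that scored 13, 58.2, 48.9, 66.2, 47.1, 17.9 and 37.9, each with the core and 4 of them with GTAAACA. A chain of 5 peaks with a summed score of 174.8 stood 28.6 kb before it, and 1 of 4 peaks with 52.0 stood further on. Stard13 held 7 intronic peaks of 41.1, 16.9, 36.9, 36.1, 74.5, 24.2 and 23.3, of which 5 had the core, and a chain of 4 peaks stood 49.6 kb from them. Trio held 7 peaks with a summed score of 243.8, of which 6 had the core, although Otulinl had the nearest TSS.

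Within Dnm3, a dynamin gene, lay 3 chains with 6, 4 and 4 peaks and summed scores of 266.6, 64.2 and 107.9. The 6 peaks scored 18.9, 32.3, 42.5, 69.0, 51.8 and 52.1, with the core in 3, and 5 were in introns and the highest at a transcript end. Dnm3 also hosts the opposite-strand transcript Dnm3os, the precursor of the mesenchymal microRNAs miR-199a and miR-214, and the chains lay at -205.6, -172.6 and -84.6 kb from its TSS. That gene was looked up after the chains had been seen. The nearest protein-coding TSS was that of 4930558K02Rik.

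Zfp608, a zinc finger gene in a wide gene desert, was nearest to 4 chains, more than any other gene. They stood at 502.7, 271.9, -85.3 and -503.2 kb from its TSS, with summed scores of 164.0, 101.8, 131.1 and 106.7. The core stood in 3 of 5, 3 of 4, 4 of 4 and 3 of 4 of their peaks. Only Zfp608, Bnc2, Rad51b and 4930558K02Rik had 3 or more chains, and 17 genes had 2.

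The chain of most peaks held no high one. Its 9 peaks lay in 30957 bp between Ribc2 and Fbln1, an extracellular matrix glycoprotein gene, at -32.6 kb from the TSS of Fbln1. They scored 10.9, 20.6, 23.0, 22.5, 23.4, 12.1, 13.1, 10.6 and 14.5, all intergenic, with the core in 5. No peak exceeded the upper quartile of the list. The Krtap5-4 chain, by contrast, ranked second in summed score with only 5 peaks (88.2, 33.7, 33.6, 179.2 and 11.5), of which 3 held the core. At Abcg8, a sterol transporter, 6 peaks scored 99.3, 31.1, 28.2, 30.7, 29.4 and 49.0 with the core in every one.

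Scores are given for further chains of 7. Near Dact1, a regulator of WNT signalling, the scores were 13.3, 15.7, 28.8, 33.7, 15.2, 42.2 and 92.6, 129.5 kb downstream of the TSS, with the core in 4. Near Lmo4, a LIM-only cofactor 618.5 kb away, they were 10.9, 48.1, 110.6, 11.4, 17.7, 15.7 and 23.6, with the core in 3. In Tmeff1, a transmembrane protein gene upstream of Cavin4, 6 peaks scored at most 24.7 and the last scored 113.5, with the core in 5. In the chain nearest to Il17b, a cytokine gene, they were 28.8, 29.2, 67.6, 59.0, 10.9, 10.1 and 10.8 at -33.2 kb, with the core in 6. In Ddc, the aromatic amino acid decarboxylase gene, they were 59.3, 24.6, 21, 35.0, 17.2, 12.9 and 11.8, with the core in 4. The chain of 7 between Foxd1 and Gm10320 held the core in every peak, with a summed score of 180.9. At Medag, 3 of 7 peaks were in promoters of other transcripts, the highest score was 31.8 and the core stood in 3. The chain of 5 with the shortest span, 8243 bp near Tex36, held the core in only 1 peak.

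Some chains stood close to other chains. There were 21 neighbouring pairs within 100 kb of each other, the closest 10.9 kb apart, between Fam20b and Angptl1. The rule joins peaks up to 10000 bp apart, so no pair of chains could stand closer than that. Pairs that shared a nearest gene included those at Cald1, an actin-binding gene of smooth muscle and fibroblasts, 18 kb apart with summed scores of 188.3 and 82.7, and at Pcdh18, a protocadherin, 24.4 kb apart with 125.5 and 158.1. These 3 were named after their distances were seen. Chromosome 18 had the largest share of its peaks in chains among the autosomes (6.84%, in 16 chains) and chromosome 9 the smallest (1.91%, in 6).

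The sex chromosomes held 3 chains, a pair on X and 1 on Y. The Y chain held 6 of the 7 Y peaks, near Gm47283, and 35.9% of its peak bases were repeat-masked, compared with a mean of 12.6% for all chain peaks. It was the only chain in which peaks shared a 20-base word, in 10 of its 15 pairs of peaks. Without it the core share of chain peaks was 70.3% and the intronic share 53.5%.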

How the data were processed

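Per the series' design text and the submitters' processing notes, ChIP and input reads were aligned to mm10 with Bowtie2 (2.4.1), handled with SAMtools (1.7.1), and HOMER called the peaks against the input. The HOMER version, its settings, read depth and any pooling of the 2 ChIP libraries are not given in these sources. The deposited table has 25707 peaks of 212 bp. The score is the authors' value as deposited. The last column, headed by the authors for a focus ratio or a size, holds fractions below 1 and was taken as the focus ratio.

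The 3 contig peaks were left out. Chains joined midpoints up to 10000 bp apart. Classes at the peak centre came from GENCODE M21 basic transcripts, taken in the order promoter, transcript end (100 bp before to 1000 bp after), coding exon, untranslated region, noncoding exon, intron, intergenic. Gene distances use the middle of the chain. Motifs were matched on GRCm38, the sequence of mm10, in the central 200 bp and in flanks 2000 bp away. Shares carry exact Clopper-Pearson intervals at 95%, and the counting of chains and motifs was checked on simulated data.

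Chains named are the 12 with most peaks, the 10 with the largest summed score, those with the highest peak and the shortest span among 5 or more peaks, all of the TGF-beta, Hedgehog, HGF and MET and forkhead lists, up to 4 for each other list, and genes with 3 or more chains. Members, lists and rules were chosen with earlier results of these data known. Alternatives varied the linking distance, chain size, score, motif, window, promoter, repeats and gene assignment. Work was done in Python 3.11.15 with pandas 2.3.3, numpy 2.4.6, pysam 0.24.0, scipy 1.17.1 and matplotlib 3.10.9.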

Additional observations from a re-analysis of the deposited data

How the results depend on the processing

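Linking peaks up to 5000 bp apart gave 30 chains with 0.482% of the peaks, 30 nearest genes, 3 of them mesenchyme factors, a median score 3.65 above that of other peaks (2.4 with links of up to 10000 bp) and the forkhead core in 80.6% (exact 95% interval 72.6 to 87.2, 124 peaks). The difference in core share from other peaks was then 8.14 percentage points instead of -2.2, and the interval of other peaks (72.0 to 73.0) overlapped that of the chain peaks. The cause was not tested. The strict GTAAACA stood in 31 of these 124 peaks, a lower share than the 27.5% of other peaks. Links of up to 20000 bp gave 830 chains, 16.3% of the peaks, 700 genes and 30 mesenchyme factors. Chains of 3 or more peaks gave 957 chains, 12.7% of the peaks, 49.5% in introns, 802 genes and 30 mesenchyme factors. Chains of 5 or more gave 82 chains, 1.75% of the peaks, 59.9% in introns, 79 genes and 2 mesenchyme factors.

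Chaining only peaks scored at or above the list median gave 58 chains, 2.02% of the peaks, 78.8% with the core, a core difference of 0.43 points, 1.92% in promoters, 60.0% in introns, a score difference of 3.2, 53 genes and 3 mesenchyme factors, and the cause of the changed sign was not tested. With GTAAACA alone the share was 28.4% and the difference 0.96 points. The central 100 bp held the core in 66.1%, and a promoter of 2000 bp upstream to 500 bp downstream held 6.94% of chain peaks. The other 40 values, among them those without repeat-rich peaks, without the Y chain and with other gene assignments, stayed within the interval of the reported value or within 1.5 times its count. The last alternatives, without the Y chain and outside promoters, were chosen after seeing the data.

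No paired analysis was possible because the deposited list holds no values per library. Leaving out a library was likewise not run. Depth per library is not known, so peaks too weak to be listed are not counted in any chain.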
